A study of Mus musculus with 6 samples.

Results

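The transcripts described here encode the ribosomal proteins of the small cytoplasmic subunit. They were chosen by symbol alone, as the protein-coding genes named Rpsa or Rps followed by a number and at most a letter and a digit, and 32 of the 25124 genes in the deposited table met this rule. Poly-adenylated RNA of whole mouse retina was sequenced to compare wild-type animals with animals carrying Elovl2(C234W), a cysteine-to-tryptophan substitution in the elongase that makes the precursors of docosahexaenoic acid. Both groups were C57BL/6J mice aged 4 months, with 3 libraries each and no other allele or treatment named. The wild-type libraries are WT1A, WT2A and WT2B. The libraries FS3A, FS3B and FS5A were taken as C234W by elimination, because the labels do not explain that prefix, and every direction below rests on this. Whether the libraries of a group are from different animals is not stated, so a p-value here reflects the spread among libraries, which may be technical.

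The small subunit binds messenger RNA, holds the initiator tRNA and reads the codons. It consists of a single ribosomal RNA and a set of proteins that sit on its head or on its body and platform, each normally present in a single copy. Transcripts of ribosomal proteins usually begin with a C followed by a run of pyrimidines, the terminal oligopyrimidine tract, through which mTOR signalling and the protein Larp1 control their translation and stability together. Their genes have also left many processed pseudogenes in mammalian genomes, so short reads from some members match several places. Photoreceptors renew their outer segments throughout life and keep a high rate of protein synthesis.

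Between 14184093 and 19298613 counts fell in genes per library. Values are library-size scaled counts (CPM) after correction by the trimmed mean of M-values (TMM), and CPM per kilobase of the deposited transcript (RPKM) where levels of different genes are compared. Log2 fold changes are C234W over wild type, fitted to all 14685 genes that passed a filter on low counts, and a member is said to have fallen where the edgeR quasi-likelihood test gave a Benjamini-Hochberg adjusted p under 0.05 over all of them. All 32 members passed the filter. In bulk tissue, fewer cells of a type and less RNA per cell cannot be told apart.

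Transcripts of the small subunit were lower in C234W retinas across nearly the whole set. Of 32 members, 17 fell and 0 rose, against 1.53% of all tested genes lower and 0.293% higher. The names of WT2A and WT2B carry the same number, as do those of FS3A and FS3B, and with each such pair summed 0 members and 0 genes were called (smallest adjusted p of a member 0.37). With total-count scaling 0 members were called as well, and of all tested genes 0 were lower and 1 higher. In either setting 24 members had an unadjusted p under 0.05. Over all tested genes this was 1844 of 15193 with pairs summed and 4417 of 14685 with total-count scaling, in either direction. The log2 fold change was negative for 32 of 32 members, from -1.73 for Rps16 to -0.06 for Rps27a, with a median of -0.91, whereas the median of all tested genes was 0.02. For 26 members each C234W library lay below each wild-type library, an arrangement found in 16.4% of tested genes. The 6 members whose groups overlapped were Rps6, Rps13, Rps15a, Rps23, Rps27a and Rps29. DESeq2 called 24 members lower, against 7.69% of the genes it gave an adjusted p.

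**Figure D1:**
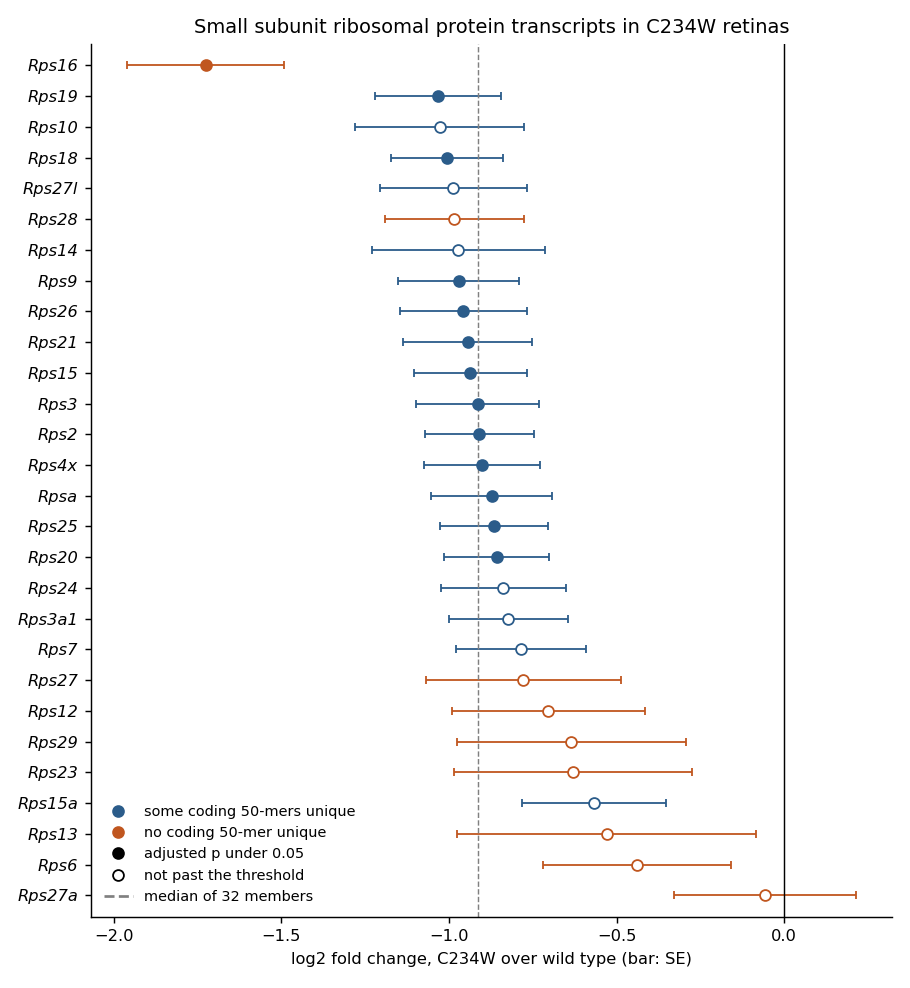
Log2 fold change of 28 small subunit members (points) with its SE (bars), C234W over wild type, in order of size. Filled points passed the adjusted threshold and orange points have no coding 50-mer of their own. Nearly all points sit close to the dashed median of -0.91, with Rps16 apart on the left and Rps27a next to 0.

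The 17 adjusted p-values lay between 0.0469 and 0.0498, all just under the threshold, so a small shift in adjusted p changes the count of calls. Their unadjusted p in the edgeR test ran from 4.11e-05 for Rps16 to 0.00089 for Rpsa. Without WT1A 26 members were called, against 9.55% of genes lower in that fit. Without WT2A, WT2B, FS3A, FS3B or FS5A edgeR called 0 members. Of all tested genes it called 2 lower without FS5A and 0 lower without any of the others. In these fits 24 to 28 members had an unadjusted p under 0.05. The number over all tested genes, in either direction, was 2224 to 3709 of 14863 to 14970. FS3B was the lowest of the 6 libraries for 28 of 32 members, and WT2B the highest for 19. Relative to the wild-type mean of each member, the median log2 level was -0.72 in FS3A, -1.18 in FS3B and -0.88 in FS5A, and -0.18 in WT1A, 0.05 in WT2A and 0.10 in WT2B. WT1A was thus the wild-type library closest to the C234W level, and a wide gap remained between it and FS3A.

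**Figure D2:**
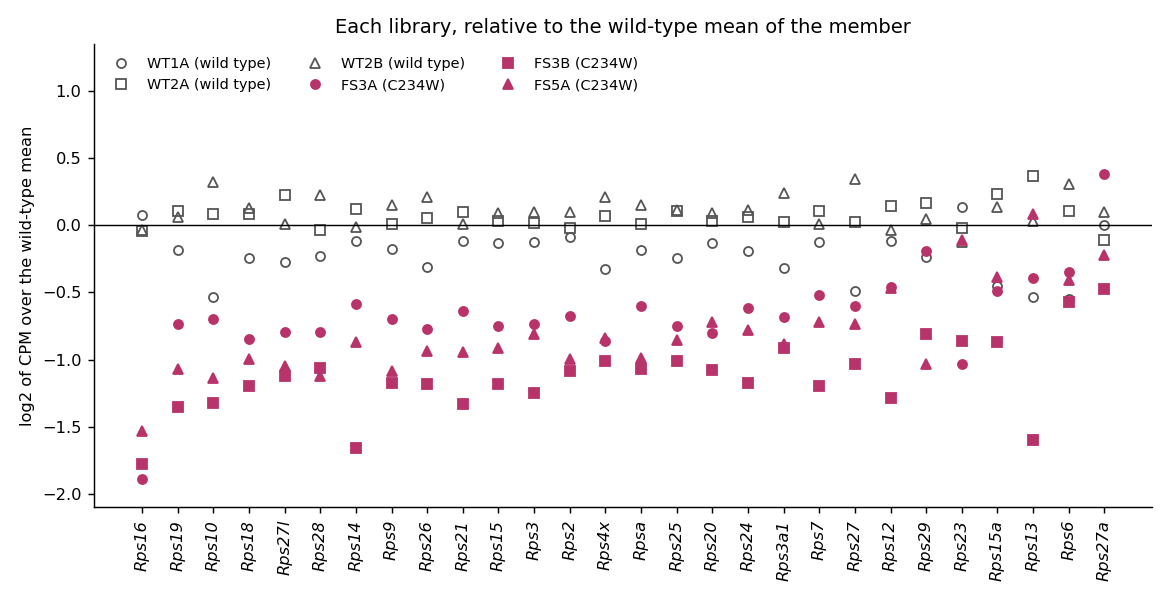
Log2 of CPM over the wild-type mean for 28 members (horizontal axis, ordered by fold change) and library (symbols: open grey for wild type, filled pink for C234W). The C234W libraries lie below the wild-type libraries for 22 of those plotted, with FS3B (squares) lowest in most of them.

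On the head of the subunit, 9 of 14 members fell and the median log2 fold change was -0.95. Rps16, whose tail reaches the tRNA in the peptidyl site, had the largest change of the 32. Its mm10 position is chromosome 7, plus strand, bases 28350689 to 28352698. Its levels were 11.16, 10.23 and 10.30 CPM in WT1A, WT2A and WT2B, and 2.847, 3.083 and 3.658 CPM in FS3A, FS3B and FS5A. The wild-type libraries were close together and every C234W library was far below them. The log2 fold change was -1.73 (SE 0.234, adjusted p = 0.0469), which lies 0.81 below the median of the members. These values rest on 139.5 to 189.5 counts per wild-type library and 51.5 to 65 per C234W library, fewer than for most members.

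Rps18, which forms a bridge to the large subunit, gave 85.54, 107.4 and 110.6 CPM in wild type and 56.28, 44.16 and 50.73 CPM in C234W. WT1A was the lowest wild-type library and still stood above all C234W libraries, and the log2 fold change was -1.01 (SE 0.168, adjusted p = 0.0469).

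Rps15, which reaches from the head towards the decoding centre, had the second highest length-scaled level, 1040 ± 82.2 RPKM (SD, n = 3) in wild type. Per library it stood at 542.9, 608.1 and 634.3 CPM in wild type and 353.7, 262.8 and 315.8 CPM in C234W. The groups were well apart, and the log2 fold change was -0.94 (SE 0.169, adjusted p = 0.0469). Further head members that fell were Rps19, the protein most often altered in Diamond-Blackfan anaemia (-1.03), Rps3 at the entry of the messenger RNA channel (-0.92), Rps25, which some viral messages need for initiation (-0.87), and Rps20, a ubiquitylation target on collided ribosomes (-0.86).

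The remaining 5 head members did not pass. Rps28 came closest, at -0.98 (SE 0.207, adjusted p = 0.0505), with its libraries apart. Rps10, also a collision target, had as large an estimate, -1.03, but an adjusted p of 0.0621. Its spread in wild type was wide, at 58.23 ± 16.5 CPM (SD, n = 3). Rps12 and Rps29 were measured at -0.70 and -0.64.

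Rps27a, made as a fusion with ubiquitin, stood apart from the other members and is given here by library because of its value. It had 7.903, 7.320 and 8.460 CPM in wild type and 10.29, 5.691 and 6.768 CPM in FS3A, FS3B and FS5A. FS3A was the highest of the 6 libraries and FS3B the lowest, so the groups overlapped fully. The log2 fold change was -0.06 (SE 0.272, adjusted p = 0.917), and it turned positive with total-count scaling, with the length trend removed and without FS3B or FS5A.

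On the body and platform 8 of 17 members fell, with a median log2 fold change of -0.87. Rps2, at the entry of the messenger RNA channel, is on chromosome 17 from 24720063 to 24721927 on the plus strand. Its libraries gave 230.1, 240.7 and 262.1 CPM in wild type and 152.6, 114.9 and 122.4 CPM in C234W, FS3A being nearest to wild type. The log2 fold change was -0.91 (SE 0.162, adjusted p = 0.0469). Rps9, which helps to shape the entry channel and had the third highest length-scaled level (567 ± 64.1 RPKM in wild type, SD, n = 3), stood at 348.7, 396.6 and 437.9 CPM in wild type and 242.6, 174.9 and 186.0 CPM in C234W. Its groups were also apart, and the log2 fold change was -0.97 (SE 0.18, adjusted p = 0.0469).

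Rps14, a protein of the platform, was the most abundant member at 1600 ± 132 RPKM (SD, n = 3) in wild type. Its libraries held 870.4, 1026 and 938.3 CPM in wild type and 629.7, 298.9 and 516.7 CPM in FS3A, FS3B and FS5A. The groups did not overlap, but FS3B was far below both other C234W libraries. With this spread the log2 fold change of -0.97 (SE 0.258) did not pass (adjusted p = 0.0712). Further body and platform members that fell were Rps26 at the exit of the messenger RNA channel (-0.96), Rps21 (-0.94), the X-linked Rps4x (-0.90) and Rpsa, also known as the laminin receptor (-0.87).

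The 3 members with the lowest length-scaled levels were all of the body and platform, and none passed. Rps23, which guards decoding accuracy, had 2.457, 2.207 and 2.060 CPM in wild type and 1.095, 1.233 and 2.073 CPM in C234W. FS5A lay within the wild-type range, and the log2 fold change was -0.63 (SE 0.355, adjusted p = 0.287). Rps13 had 1.793, 3.337 and 2.648 CPM in wild type and 1.971, 0.8537 and 2.744 CPM in C234W, and its log2 fold change was -0.53 (SE 0.447, adjusted p = 0.478).

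Rps6, the substrate of the S6 kinases, had 4.716, 7.428 and 8.534 CPM in wild type and 5.420, 4.648 and 5.182 CPM in C234W. WT1A was as low as the C234W libraries, and the log2 fold change of -0.44 (SE 0.28) had an adjusted p of 0.344. For Rps13 the counts per library ran from 18.5 to 61.5, and its SE was the largest of the 32. Rps24, Rps3a1 and Rps7 had estimates of -0.84, -0.82 and -0.78 with non-overlapping groups and adjusted p-values of 0.0545, 0.0534 and 0.0631. In Rps15a, at -0.57 (adjusted p = 0.145), WT1A (152.2 CPM) lay between the C234W libraries (114.3 to 159.5 CPM).

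Rps27 and Rps27l are paralogues, and Rps27l is induced by p53. Their coding sequences in GENCODE vM21 (GRCm38) have 252 bases each and are identical at 192 of them (76.2%), with no identical run longer than 11 bases. The first 60 coding bases are shown to make this visible, with the 18 differing bases in capitals. Rps27 is on the minus strand of chromosome 3 (90212667 to 90213648) and Rps27l on the plus strand of chromosome 9 (66946086 to 66949522).
Rps27: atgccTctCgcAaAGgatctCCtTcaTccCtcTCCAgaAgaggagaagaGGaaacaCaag
Rps27l: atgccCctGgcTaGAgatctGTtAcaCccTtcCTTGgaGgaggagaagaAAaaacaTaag

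Rps27 had 5.180, 7.428 and 9.269 CPM in wild type and 4.818, 3.557 and 4.390 CPM in C234W. Rps27l had 13.68, 19.38 and 16.63 CPM in wild type and 9.526, 7.589 and 7.987 CPM in C234W. In both, the C234W libraries lay below the wild-type ones, by a small margin to WT1A in Rps27. The log2 fold changes were -0.78 (SE 0.29, adjusted p = 0.142) for Rps27 and -0.99 (SE 0.219, adjusted p = 0.0545) for Rps27l, and neither passed. By length-scaled level Rps27l (28.5 ± 4.9 RPKM in wild type, SD, n = 3) stood above Rps27 (12.8 ± 3.59 RPKM), but every coding 50-mer of Rps27 occurs in another annotated gene. The table also lists Rps27rt at the locus of Rps27, and with overlapping entries the values of Rps27 are uncertain.

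Summed over all members, the small subunit level was 5649, 6595 and 6793 CPM in WT1A, WT2A and WT2B and 3888, 2740 and 3480 CPM in FS3A, FS3B and FS5A. The C234W mean was 0.531 of the wild-type mean, and the groups were far apart. The 52 large subunit genes summed to 7169 ± 677 in wild type and 4034 ± 539 CPM in C234W (SD, n = 3), a ratio of 0.563, and 18 of 49 tested fell with a median log2 fold change of -0.81. The ratio of small to large subunit sums was 0.882, 0.889 and 0.884 in wild type and 0.861, 0.794 and 0.841 in C234W. The ratio was nearly constant in wild type and lower in each C234W library. Leaving out Rps14, the most abundant member, it was 0.746, 0.751 and 0.762 in wild type and 0.722, 0.707 and 0.716 in C234W, still with no overlap. These sums were not tested.

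**Figure D3:**
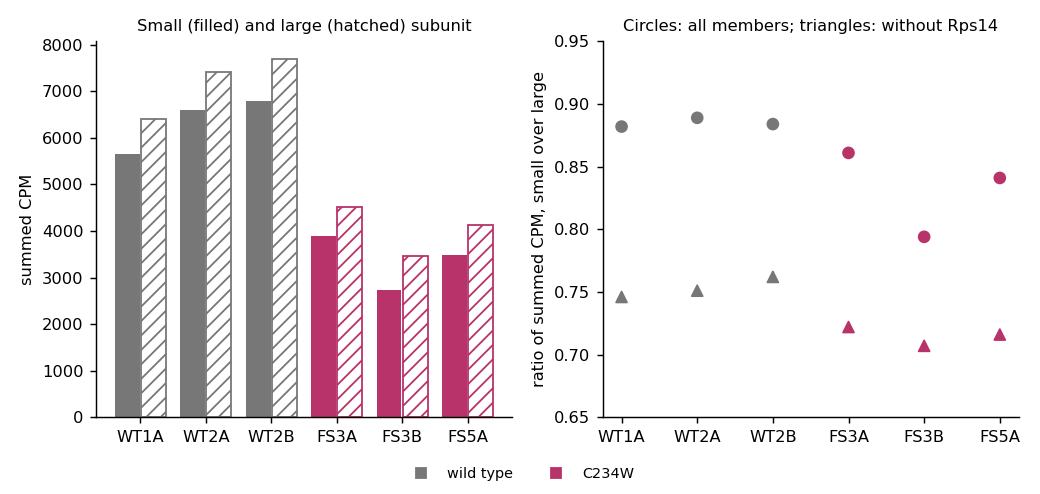
Left: summed CPM of small subunit (filled bars) and large subunit (hatched bars) genes in each library. Right: ratio of the small to the large subunit sum per library, for all members (circles) and without Rps14 (triangles), on an axis from 0.65 to 0.95. Both sums are lower in the C234W libraries (pink), and the ratio is lower in each of them than in any wild-type library (grey).

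The measured level of a member followed how far its sequence is its own. The series' design text says that uniquely mapped tags were counted. As a description of what such counting can see, the share of 50-base stretches (50-mers) of each coding sequence found in no other annotated gene was taken from GENCODE vM21. This share was 0 for 10 members, among them Rps6, Rps12, Rps13, Rps16, Rps23, Rps27, Rps27a, Rps28 and Rps29. Rps2 shared stretches with the most pseudogenes, 71, and kept 15.9% unique, whereas Rps3 kept 91.9%.

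The 10 members with no unique stretch had a median wild-type level of 11.2 RPKM, with Rps23 lowest at 4.08 and Rps28 at 51. The other 22 had a median of 206 RPKM, from 28.5 for Rps27l to 1600 for Rps14. These levels are of reads that could be placed, and are not shown to be the abundance of the messages. Across the 32 members the rank correlation of unique share with wild-type RPKM was 0.79 (Pearson r 0.63 on log2 RPKM). The members share the same libraries, and RPKM depends on the deposited transcript length. Stretches in untranslated regions were not included, and no source used here gives the read length.

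**Figure D4:**
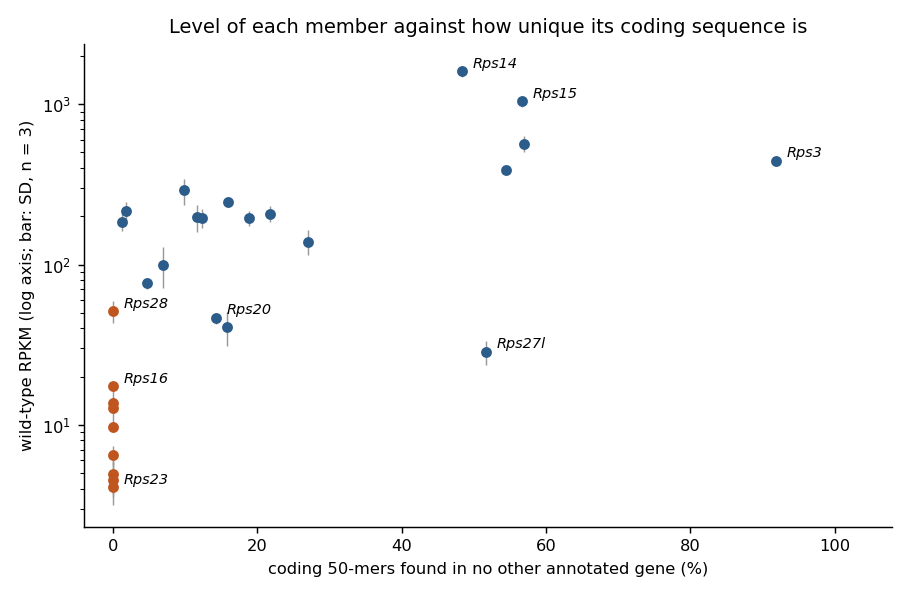
Wild-type RPKM of 28 members (log axis; bars are the SD over 3 libraries) against the percentage of its coding 50-mers found in no other annotated gene. Rps28, at 51 RPKM, is the highest of those plotted at 0% (orange), while Rps14 reaches 1600 and Rps15 1040.

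The same division separated the members by how firmly they were called. Of the 22 with unique stretches, 15 fell, all 22 had an unadjusted p under 0.05, and 21 had non-overlapping groups. Their log2 fold changes lay between -1.03 and -0.57, with SEs of at most 0.258. Of the 10 without, 2 fell, 5 had non-overlapping groups, and the log2 fold changes spread from -1.73 to -0.06 with a median SE of 0.284. Both the highest and the lowest fold change of the set were therefore among members with no unique coding 50-mer. The summed C234W level was 0.53 of wild type over the members with unique stretches and 0.555 over those without. The difference between them was not tested.

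Across all tested genes the fold change followed transcript length, so the members were set beside genes of like length. The deposited lengths of the members ran from 385 to 5127 bases, with 26 between 385 and 991. Of these 26, 14 fell, against 8.81% of 885 other tested genes in that range, and 22 had non-overlapping lower groups, against 46.9%. The median log2 fold change was -0.95 for the 26 and -0.47 for the others (-0.45 without other ribosomal proteins). Over the full range of member lengths the share of other genes lower was 1.72%. Taking for each member the tested genes within 20% of its length, 29 members lay below the median of those genes, and Rps27a, Rps29 and Rps13 lay above it.

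The 6 members with a deposited length over 1000 bases lay below the median of genes of their own length as well. Rps20, with 3440 bases, had a log2 fold change of -0.86, and the genes of its length had a median of 0.08. Rps15a, with 5127 bases, stood at -0.57 beside a median of 0.18. For Rps3, Rpsa and Rps24, with 1852 to 1870 bases, the values were -0.92, -0.87 and -0.84 beside medians near -0.14. Rps6, with 1387 bases, was at -0.44 beside -0.28, the smallest gap of the 6. The deposited table keeps a single isoform per gene. The principal transcript in GENCODE is shorter than the deposited one for Rps15a (640 bases), Rps6 (878) and Rps24 (1613). For these genes the length of the RNA that was sequenced may be less. For Rps3, Rpsa and Rps20 the principal transcript has 1908, 1938 and 3706 bases and is not shorter. The shortest annotated coding transcript of these genes has 489, 1599 and 3706 bases. Which isoform was sequenced was not tested.

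**Figure D5:**
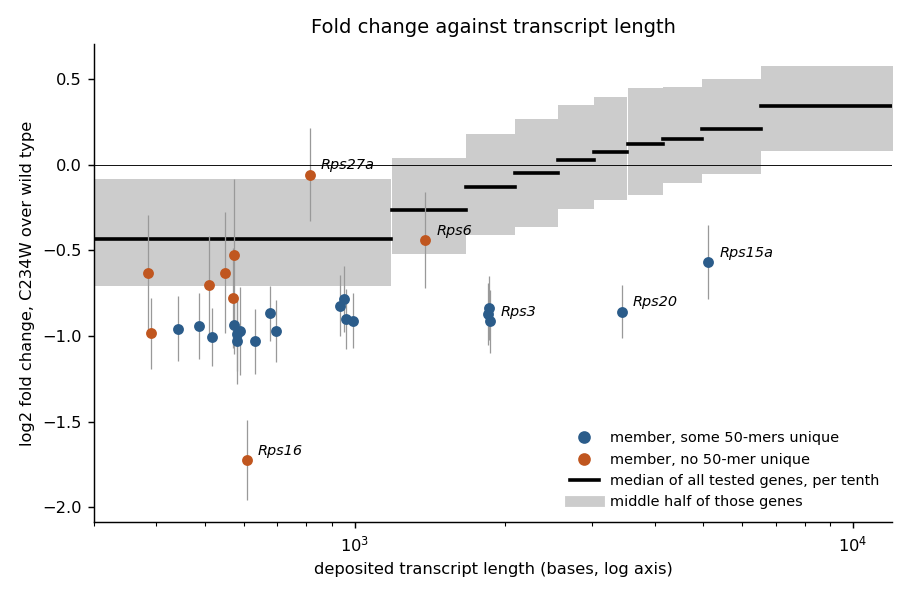
Log2 fold change (C234W over wild type) against the deposited transcript length on a log axis. Black lines are the medians of all tested genes in 10 bins of nearly equal number by length, grey bands their middle 50%, and points 28 members with their SE. The median rises from -0.44 in the shortest bin to 0.34 in the longest, and Rps20, Rps3 and Rps15a lie far below the band at their length.

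With the trend on length removed from each library, edgeR called 0 members, and of all tested genes 0 lower and 1 higher. DESeq2 was not run. At an unadjusted p under 0.05, 25 of 32 were lower, against 13.6% of all tested genes. The median log2 fold change was -0.54 for the members and -0.05 for all genes, and 31 of 32 were negative. Rps16 (-1.28, SE 0.249) and Rps20 (-0.98, SE 0.163) had the smallest adjusted p, 0.0917.

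Because these members move together, the start of each gene was searched for shared elements in the RefSeq promoter windows of GRCm38.p6, which run from 250 bases before to 50 bases after the annotated start. Of the 32 members 24 had an entry; Rps14, Rps20, Rps27a and Rps29 were among those without. A C followed by at least 4 bases that are C or T, read on the gene's strand from the annotated start itself, was present in 6 of 24 (25%), against 3.0% of 27025 genes with a window and 20% of 40 large subunit genes. The 30 bases around the start of these 6 are shown, 10 before and 20 from the start, with the pyrimidine run from the start in capitals. A gene was counted where any of its annotated starts had the tract. The starts shown for Rps18 and Rps21 lie 24 and 70 bases upstream of the start of the deposited transcript, and a second window of Rps21, at the deposited start, has no such tract.
Rps10 (chr17:27635225-27635254, minus strand): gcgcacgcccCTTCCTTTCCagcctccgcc
Rps15a (chr7:118116128-118116157, minus strand): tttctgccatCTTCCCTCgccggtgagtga
Rps18 (chr17:33955646-33955675, minus strand): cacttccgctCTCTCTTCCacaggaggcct
Rps21 (chr2:180257369-180257398, plus strand): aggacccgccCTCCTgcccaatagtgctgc
Rps27 (chr3:90213629-90213658, minus strand): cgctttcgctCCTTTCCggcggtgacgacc
Rps6 (chr4:86857348-86857377, minus strand): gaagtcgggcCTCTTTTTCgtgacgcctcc

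A run of at least 8 pyrimidines led by C lay within 50 bases on either side of the start in 18 of 24 members (75%), against 32% of all genes in the table. Annotated starts can be off by some bases, so a missing tract at the exact start says only that these letters are not there. CCGGAAG or its complement CTTCCGG, the core bound by ETS factors, stood in the window of 11 of 24 members (45.8%), against 9.9% of all genes, and its complement can overlap a pyrimidine run. Of the 6 members with the tract at the start, Rps18 and Rps21 fell, and the median log2 fold change was -0.86. Of the other 18 with a window 10 fell, with a median of -0.91, and the difference between these groups was not tested.

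Components of the subunit that the symbol rule leaves out were examined beside the members, each of which lies at the GENCODE locus of its symbol (32 of 32). Rack1, a scaffold on the head, had 761.1, 814.2 and 890.5 CPM in wild type and 482.4, 325.8 and 457.3 CPM in C234W. The groups did not overlap, and Rack1 fell, at -0.96 on the log2 scale (SE 0.19, adjusted p = 0.0475). The row named Fau, a protein made as a fusion with a ubiquitin-like protein, is placed on chromosome 16 from 76403206 to 76403711, whereas GENCODE has the gene on chromosome 19, so its values cannot be read as those of the Fau gene. That row had 379.7, 348.0 and 335.0 CPM in wild type and 199.9, 159.3 and 195.5 CPM in C234W, and passed the test at -0.94 (SE 0.156, adjusted p = 0.0469). Rps4l, a copy of Rps4x listed as a pseudogene in the table, fell from 54.95 ± 4.45 to 30.42 ± 3.92 CPM (SD, n = 3), at -0.85 (SE 0.165, adjusted p = 0.0475).

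Genes that build the subunit or bind it were given by list. For comparison, 3807 of all 14685 tested genes had an unadjusted p under 0.05 in edgeR, in either direction. Of 59 assembly factors 0 fell and 0 rose by edgeR (12 had an unadjusted p under 0.05), DESeq2 called 1 higher, and their median log2 fold change was -0.04. Nop56, a core protein of the particles that methylate ribosomal RNA, had the smallest p, the wild-type level being 37.97 ± 3.46 and the C234W level 63.02 ± 7.17 CPM (SD, n = 3) (log2 fold change 0.73, SE 0.16, adjusted p = 0.0542). Of 24 initiation factors that bind the subunit, 1 fell in edgeR and 10 were called lower by DESeq2. For 21 of the 24 the log2 fold change was negative, 13 had an unadjusted p under 0.05, and 16 had all C234W libraries below all wild-type ones. Of all 14685 tested genes, 7057 had a negative log2 fold change and 16.4% had all C234W libraries below all wild-type ones. The shares called lower were 1.53% of all tested genes in edgeR and 7.69% of those DESeq2 gave an adjusted p. Eif3j1 and Eif3j2 overlap in position and have the same counts in every library. A single measurement thus enters the 24, the 21 and the 16 as separate genes. Their median was -0.44, and -0.345 with the length trend removed. The factor that fell was Eif3f, a subunit of the large scaffold factor, which went from 396.3 ± 62.6 to 213.8 ± 20.6 CPM (SD, n = 3), at -0.89 (SE 0.17, adjusted p = 0.0469).

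Among 12 genes of S6 kinase signalling to Rps6, 0 passed in edgeR. DESeq2 called 1 higher, and 3 had an unadjusted p under 0.05 in edgeR, against 3807 of all 14685 tested genes. Their median was 0.23, and -0.05 with the length trend removed. Rps6ka3, a kinase that phosphorylates Rps6, had the smallest p, the wild-type level being 54.2 ± 12.1 and the C234W level 101.6 ± 26.0 CPM (SD, n = 3) (log2 fold change 0.91, SE 0.226, adjusted p = 0.064). The mutated gene itself, Elovl2, was at -0.53 (SE 0.166, adjusted p = 0.0991), which does not check the labels, as a substitution need not alter the transcript level.

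Markers of cell types were set beside the members, and of all lists a single marker passed in edgeR. For comparison, 3807 of all 14685 tested genes had an unadjusted p under 0.05 in edgeR, in either direction. DESeq2 called 7.69% of the genes it gave an adjusted p lower. All 12 rod markers were detected, and their summed level ran from 109900 to 169700 CPM in wild type and from 72190 to 95520 CPM in C234W. Of the 12, 1 fell, Pde6g, a subunit of the rod phosphodiesterase (-1.04, SE 0.212, adjusted p = 0.0491), 6 had an unadjusted p under 0.05 and 6 were lower by DESeq2. All 12 log2 fold changes were negative, with a median of -0.66, and -0.65 with the length trend removed, where the members had -0.54. WT1A had the highest rod sum, and the lowest small subunit sum of the wild-type libraries. The 10 pigment epithelium markers summed to between 853.0 and 1214 CPM in wild type and between 430.3 and 520.1 CPM in C234W, and 0 of 10 passed (2 at an unadjusted p under 0.05, and 1 lower by DESeq2). Of the 10, 6 were negative. Without Rlbp1, which Müller glia also express, the sums were 761.7, 179.9 and 77.47 CPM in wild type and 110.6, 172.3 and 175.7 CPM in C234W and overlapped, with WT1A far above the other libraries.

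The 7 erythrocyte markers summed to 121.6 to 229.7 CPM in wild type and 60.23 to 83.05 CPM in C234W, and 0 of 7 passed (6 at an unadjusted p under 0.05, and 6 lower by DESeq2). The globin rows are not independent. Hba-a1 and Hba-a2, Hbb-b1 and Hbb-bs, and Hbb-b2 and Hbb-bt overlap in position and hold nearly the same counts. The sum and the number of markers therefore count such reads more than once. Hbb-b1, a beta globin, had the smallest p, at -1.06 (SE 0.265, adjusted p = 0.064). The 11 lens markers were near 0, at 4.193 to 5.06 CPM in sum in wild type and 2.039 to 3.597 CPM in C234W, and only Crybb3 passed the filter, at -1.08 (SE 0.386, adjusted p = 0.133). The 11 Müller glia markers overlapped between groups, at 5309 to 7283 and 4173 to 5549 CPM, with 0 past the threshold (4 at an unadjusted p under 0.05, and 1 lower by DESeq2). Rlbp1, which is in both the pigment epithelium and the Müller glia list, had the smallest p of each (-1.02, SE 0.228, adjusted p = 0.0547). No marker of these lists was at 0 in all libraries, and the part of these cell types in the levels of the small subunit was not tested.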

How the data were processed

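The authors deposited a table of estimated counts per gene in steps of 0.5, not normalized, per the file headers, for 6 poly-A libraries of whole retina. STAR (2.7.8a, per the submitters' processing notes) was used for alignment to mm10. HOMER (4.11) then counted tags with a unique place in the exons of a single isoform per locus, minus strand only, as the design text of the series states. Such counting loses reads that match several places and ties each value to the isoform kept. The number of sample columns not used was 0.

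Counts were rounded to whole numbers, because 28.3 to 32.1% of values per library were not whole. After filterByExpr and TMM scaling, C234W was set against wild type with the quasi-likelihood test of edgeR (4.0.16, R 4.3.3; the newer method, legacy = FALSE) with no covariate. DESeq2 (1.42.0) and limma-voom (3.58.1) were alternatives, as were other scalings and filters, a loess trend on transcript length (span 0.3) removed from each library, libraries of the same number summed, and leaving out each library. The earlier quasi-likelihood method was added after seeing the data. Columns carry no replicate number of the labels. The scripts were tested on simulated data.

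The members follow the symbol rule, and they and the lists were chosen with earlier results of these data known. Every member may be named. Values per library are given for the 6 passing members with the smallest p, members with a positive fold change, paralogues, and the 3 highest and 3 lowest by RPKM. In each list the passing members (at most 3) or the one with the smallest p are named. Not every member so chosen is reported singly or plotted here, and counts and medians cover all of them. Coding 50-mers were compared with all GENCODE vM21 transcripts on both strands, taking the principal transcript of each gene, and coordinates are those of the deposited table unless a build is named.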

Additional observations from a re-analysis of the deposited data

How the results depend on the processing

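The number of small subunit members called lower was 17. It was 0 with total-count scaling, with the length trend removed and with libraries of the same number summed. At an unadjusted p under 0.05 these settings gave 24, 25 and 24 of 32 members. In each of them 0 of all tested genes were called lower. When each library was left out in turn, the number of members called ran from 0 to 26. The summed design and the fits that leave out a library have fewer samples, and without WT1A the number was 26. The cause of these changes was not tested. With RLE scaling, no filter, 1 CPM in 3 libraries, DESeq2, limma-voom, an adjusted p under 0.1 and, chosen after seeing the data, the earlier quasi-likelihood method, it lay between 14 and 24. Under total-count scaling the all-gene median log2 value rose from 0.02 to 0.21, and that of the members stood at -0.74. Rps27a turned positive with total-count scaling (0.12), with the length trend removed (0.28), and without FS3B or FS5A, running from -0.34 to 0.12 when each library was left out; the cause was not tested. The other 31 members kept a negative log2 fold change under every alternative run. The summed C234W level, 0.531 of wild type, was 0.598 as a share of raw counts and ran from 0.49 to 0.58 when each library was left out. No paired analysis was possible because the columns carry no replicate number of the labels. Depth limits Rps13, Rps23 and Rps29 most.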

Other observations

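The mitochondrial ribosome has its own small subunit, whose proteins are made in the cytoplasm and imported, and 29 of its genes were measured. Of these, 2 fell, Mrps18a from 41.66 ± 4.09 to 22.63 ± 0.773 CPM and Mrps24 from 25.75 ± 2.57 to 13.23 ± 0.318 CPM (SD, n = 3), at log2 fold changes of -0.88 and -0.96 (edgeR, adjusted p = 0.0469 for each). The share called lower was 1.53% of all tested genes, and 8.81% of those of 385 to 991 bases outside the cytoplasmic small subunit. The median log2 fold change of the 29 was -0.47, and -0.16 with the length trend removed, whereas that of the cytoplasmic small subunit was -0.91 and -0.54. Their median length was 1057 bases, against 620 for the cytoplasmic members.

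The division by unique coding stretches was also present in the large subunit. Of 19 tested large subunit genes with no unique coding 50-mer 3 fell, and of 29 with some 15 fell, with median log2 fold changes of -0.75 and -0.83. The difference was not tested.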
